A study of Arabidopsis thaliana with 47 samples.

Results

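The 7 genes described here encode small heat shock proteins of Arabidopsis thaliana: AT1G53540, AT2G29500, AT1G54050, AT5G37670, ATHSP22.0 (AT4G10250), AT5G51440 and AT1G52560. They were taken by name, through the 1 probe set matched to each, out of 22746 probe sets measured (13436 of them with 1 gene name). The annotation table used for names holds a symbol for ATHSP22.0 alone, so the other 6 are given by their locus, and no role within the family is assigned to them. Of 12 further loci listed as family members, 4 were named on the array, so 11 small heat shock protein genes could be followed in all.

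Small heat shock proteins are chaperones that need no ATP. They bind proteins that begin to unfold, keep them from aggregating and pass them on to the ATP-driven HSP70 and HSP100 chaperones for refolding. Plants have a large family of them, with members sent to the cytosol, the nucleus, plastids, mitochondria, peroxisomes and the endoplasmic reticulum. Many are scarcely transcribed at normal temperature and are induced strongly by heat through heat shock transcription factors, and some respond to other stresses as well. ATHSP22.0 belongs to the endoplasmic reticulum branch.

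Transcript levels came from 47 Affymetrix ATH1 arrays of protoplasts, that is, cells freed of their walls, from roots of Col-0 seedlings aged 10 days. Wall digestion took 4 h, transfection 25 min, and the cells then rested overnight. The plasmid was pBeaconRFP_GR::bZIP1, which from the 35S promoter makes bZIP1, a transcription factor, joined to the hormone-binding part of a glucocorticoid receptor, or the pBeaconRFP_GR empty vector. All cells therefore had passed through digestion, transfection and sorting for the red fluorescent marker, and the RNA was amplified before labelling. The cells then received nitrogen (20 mM KNO3 with 20 mM NH4NO3 for 2 h) or 20 mM KCl, then cycloheximide (CHX, which stops protein synthesis) or its solvent, then dexamethasone (DEX, 10 µM in ethanol, which lets the fusion enter the nucleus) or ethanol alone.

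Crossing nitrogen with DEX gives 4 groups in each of 3 arms, 12 groups in all. The bZIP1 cells with CHX had 6 arrays per group (24 arrays), 3 from each of 2 sets that the labels call Biorep 1 and Biorep 2. The labels do not say what a Biorep is, and it is read here as a cell preparation. The bZIP1 cells without CHX had 3 arrays per group (12 arrays). The empty-vector cells, all with CHX, had 3 arrays per group except 2 for DEX without nitrogen (11 arrays). There were no empty-vector cells without CHX among these arrays. The bZIP1 cells without DEX carried the fusion too, made from a constitutive promoter in transiently transfected cells. Of 11 root markers listed, only the root hair gene EXPA7 could be named, and it lay at the floor on 44 of 47 arrays, so the root origin rests on the labels. RCA, the rubisco activase gene and the 1 green-tissue marker named of 8 listed, lay between 2.59 and 3.42 on the log2 scale.

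Levels are the authors' deposited log2 values, in which 1 unit is a doubling of signal and the lowest values form a floor near 2.3. The floor differed slightly between the arms (2.298, 2.303 and 2.287), which reads as 3 separate normalizations. Levels of different arms are therefore placed side by side without a test, and only effects measured within an arm are compared between arms. An effect is a difference of mean log2 levels, given with its standard error (SE), and was tested with limma. It was called where the p-value, adjusted by the Benjamini-Hochberg method over all 22746 probe sets, was under 0.05. In RNA from whole cell samples, a change in the share of cells that hold a transcript and a change in the amount per cell cannot be told apart.

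The 7 genes ran from one of the brightest transcripts on the arrays to one that was hardly seen. AT1G53540 ranked highest of them in every arm, with a median percentile among the probe sets of an array of 96.7 in bZIP1 cells with CHX and 98.3 in empty-vector cells, and with values from 93.5 to 96.2 without CHX. AT2G29500, AT1G54050 and AT5G37670 lay in the middle, with median percentiles between 66.2 and 87.2. ATHSP22.0 was at the floor on 17 of 24 bZIP1 arrays with CHX and on all 12 without CHX.

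**Figure D1:**
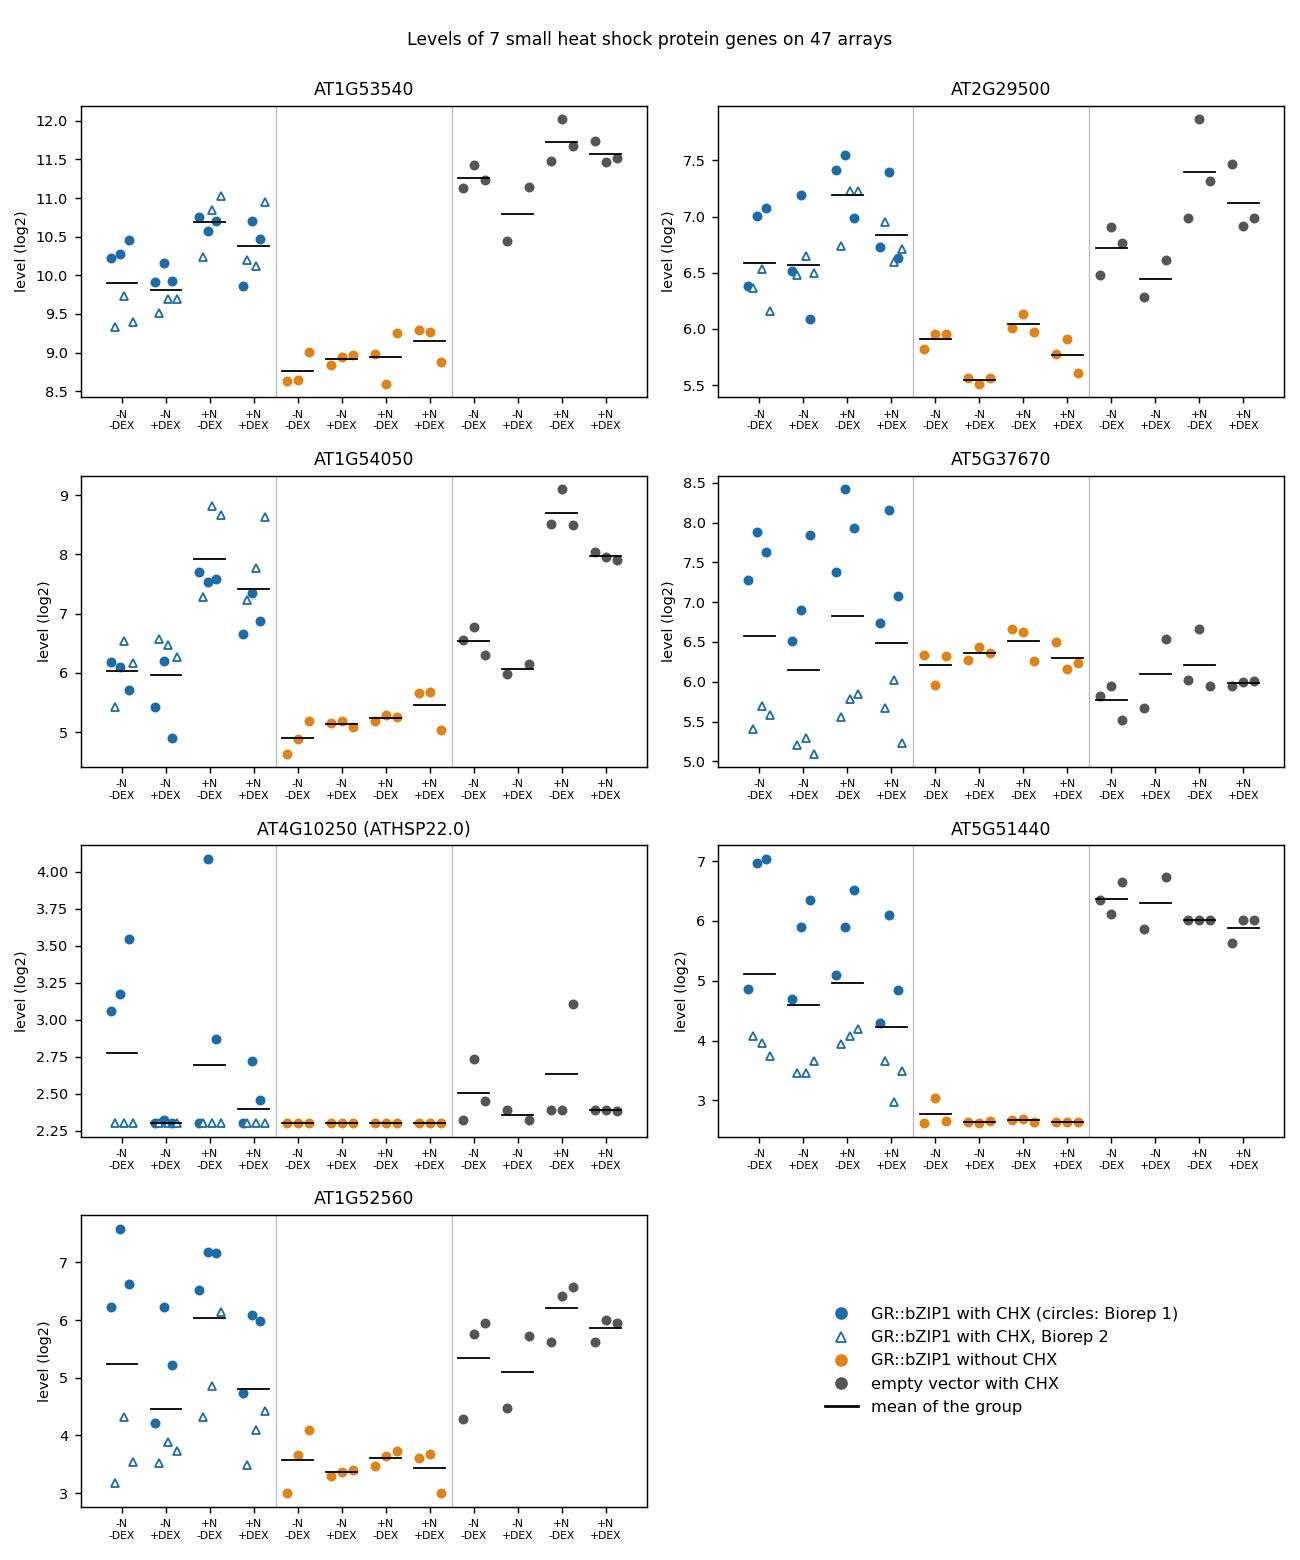
Each panel plots the log2 level of 1 gene on every array, with the 4 nitrogen and DEX groups of each arm side by side and the group mean as a line. The y axes differ between panels, and arms are separated by grey lines and are not on one scale. In bZIP1 cells with CHX, circles and triangles mark Biorep 1 and Biorep 2, and all arrays of the other arms, which have no Biorep label, are circles. In AT1G54050 the with-nitrogen points stand above the others in both CHX arms.

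In bZIP1 cells with CHX, AT1G53540 lay between 9.34 and 11.03, with a mean of 10.20 ± 0.49 (SD, n = 24). Next came AT1G54050, at 6.84 ± 1.05, AT2G29500, at 6.80 ± 0.40, and AT5G37670, at 6.51 ± 1.09, and these 3 means differ by less than the SD of AT1G54050. AT1G52560 (5.13 ± 1.36) and AT5G51440 (4.72 ± 1.23) followed, again closer to each other than their spread. Probe sets differ in how brightly they report a transcript, so this order is one of signal and not of transcript abundance.

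Without CHX the levels of the 7 members were tighter and mostly lower on that arm's own scale. AT1G53540 lay between 8.60 and 9.29 and AT2G29500 between 5.51 and 6.14. AT1G54050 lay between 4.64 and 5.67. AT5G51440 lay between 2.61 and 3.03, close to the floor, against 2.97 to 7.04 in bZIP1 cells with CHX and 5.64 to 6.73 in empty-vector cells with CHX. AT1G52560 showed the same order, with 2.99 to 4.09 without CHX against 3.17 to 7.59 and 4.29 to 6.57 with it; for both genes the lowest bZIP1 arrays with CHX reached into the range without it. AT5G37670 did not: it lay between 5.96 and 6.67 without CHX, inside its range of 5.10 to 8.42 in bZIP1 cells with CHX. Outside the 7 members, AT5G54660 was higher without CHX, at 9.10 to 9.78, against 4.89 to 6.86 in bZIP1 and 3.93 to 5.37 in empty-vector cells with CHX. AT2G19310 ran from 4.14 to 4.95 without CHX, against 2.76 to 5.06 and 2.90 to 3.44. The family loci AT4G21870 and AT5G47600 were at the floor on 34 and 44 of 47 arrays. The normalization and the cell preparation may also differ between arms, and the presence of CHX cannot be told apart from them in these level contrasts.

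Some values recur exactly. AT5G51440 had the same value, 6.01, on 5 of 11 empty-vector arrays, among them all 3 with nitrogen and no DEX. ATHSP22.0 had 2.39 on 5 empty-vector arrays, and AT1G54050 had 5.18 on 3 arrays without CHX. The SD of a group made up of such values is 0 and does not measure its biological spread.

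To ask how the 2 h nitrogen supply acted on these genes, nitrogen was compared with KCl within each arm. AT1G54050 rose in both CHX arms, by 3.19-fold in bZIP1 cells and 4.08-fold in empty-vector cells. AT1G53540 rose by 1.60-fold in bZIP1 cells with CHX. No member was called without CHX.

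AT1G54050 is the member with the widest nitrogen response. Its 12 arrays with nitrogen in bZIP1 cells with CHX ran from 6.65 over a median of 7.56 to 8.82, and the 12 with KCl from 4.91 over 6.18 to 6.58. Every array with nitrogen was above every array with KCl. The effect was 1.67 ± 0.21 (SE; 95% interval 1.24 to 2.11; limma adjusted p = 0.000152), and the nitrogen mean was higher in 4 of 4 matched pairs of groups. It was 1.90 without DEX and 1.44 with DEX. With the treatment replicates of each Biorep averaged, the effect stayed at 1.67 and was no longer called (limma adjusted p = 0.155). In that fit 0.0264% of all probe sets were called for nitrogen, against 2.02% in the main fit. The call held in 8 of 11 alternatives, with limma adjusted p from 3.79e-06 to 0.155.

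Both Bioreps showed that separation on their own. In Biorep 1 the arrays with nitrogen lay between 6.65 and 7.70 and those with KCl between 4.91 and 6.20, a difference of 1.53 ± 0.22 (limma adjusted p = 0.0558). In Biorep 2 they lay between 7.23 and 8.82 and between 5.43 and 6.58, a difference of 1.82 ± 0.35 (limma adjusted p = 0.139). These differences lay below and above that over both Bioreps, and neither Biorep alone passed the threshold. Of all probe sets, 0.127% were called for nitrogen in Biorep 1 alone and 0.106% in Biorep 2 alone. The share of all probe sets without overlap within a Biorep was not counted.

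In empty-vector cells AT1G54050 stood at 8.51, 9.11 and 8.49 with nitrogen and no DEX, and at 8.03, 7.96 and 7.90 with nitrogen and DEX. With KCl it stood at 6.55, 6.78 and 6.31 without DEX, and at 5.99 and 6.14 with DEX. All 6 arrays with nitrogen were above all 5 with KCl. The effect was 2.03 ± 0.14 (95% interval 1.70 to 2.35; limma adjusted p = 0.00376), and without treatment replicate 1 it was 2.02 with an adjusted p of 0.0659.

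Without CHX the same gene stood at 5.18, 5.28 and 5.26 with nitrogen and no DEX, and at 5.66, 5.67 and 5.04 with nitrogen and DEX. With KCl its values were 4.64, 4.89 and 5.18 without DEX and 5.16, 5.18 and 5.08 with DEX. The groups overlapped, and the effect of 0.32 ± 0.13 (95% interval 0.03 to 0.62) was not called (limma adjusted p = 0.713).

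Over the 7 members, 2 rose and none fell with nitrogen in bZIP1 cells with CHX, where 2.02% of all probe sets were called and 0.862% were called higher. The median effect of the members was 0.44, against 0.00 over all probe sets. In empty-vector cells 1 of 7 rose, against 0.163% called and 0.101% called higher among all probe sets, and the median effect was 0.62. Without CHX limma called 0 of 7, against 0.0879% of all probe sets, with a median effect of 0.13. At an unadjusted p under 0.05, 2 of 7 were higher there, against 2.78% of all probe sets. After median centring of the arrays, 31.9% of all probe sets were called in that arm (30.6% higher and 1.37% lower), and 2 of 7 members. No other tool was run.

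**Figure D2:**
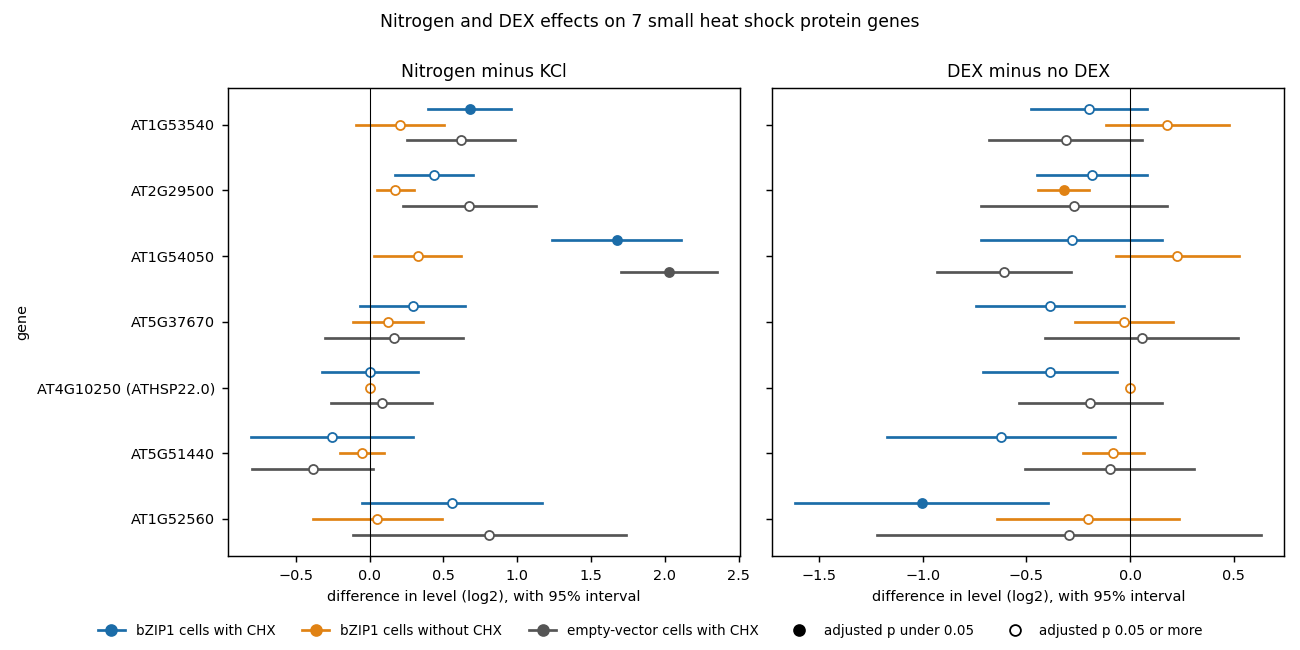
Points are effects in log2 units (nitrogen minus KCl on the left, DEX minus no DEX on the right) with 95% intervals, for 7 genes in 3 arms; filled points were called at an adjusted p under 0.05. The nitrogen effect of AT1G54050 is 1.67 and 2.03 in the arms with CHX and 0.32 in the arm without.

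AT1G53540 rose less and less evenly. Its arrays with nitrogen in bZIP1 cells with CHX ran from 9.87 over a median of 10.64 to 11.03, and those with KCl from 9.34 over 9.82 to 10.45, so the groups overlapped. The effect was 0.68 ± 0.13 (limma adjusted p = 0.00973), higher in 4 of 4 matched pairs of groups. It was 0.35 ± 0.13 in Biorep 1 (limma adjusted p = 0.633) and 1.00 ± 0.19 in Biorep 2 (limma adjusted p = 0.125). In Biorep 2 the arrays with nitrogen did not overlap those with KCl, and the share of all probe sets so separated was not counted. Leaving out any 1 of the treatment replicates 1, 2 and 3 ended the call, with adjusted p between 0.0661 and 0.203, and so did averaging the treatment replicates of each Biorep (0.3995).

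In empty-vector cells AT1G53540 stood at 11.48, 12.02 and 11.68 with nitrogen alone and at 11.75, 11.46 and 11.51 with nitrogen and DEX. With KCl it stood at 11.13, 11.43 and 11.24, and with DEX at 10.45 and 11.15. The groups with and without nitrogen did not overlap, by a gap of a few hundredths of a unit between their nearest arrays. The effect of 0.62 ± 0.16 was close in size to that in bZIP1 cells and was not called (limma adjusted p = 0.277).

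AT2G29500 had nitrogen effects of 0.44 ± 0.13 in bZIP1 cells with CHX (limma adjusted p = 0.0944), 0.68 ± 0.19 in empty-vector cells (0.356) and 0.17 ± 0.05 without CHX (0.502). In empty-vector cells its 6 arrays with nitrogen, from 6.91 to 7.87, touched but did not overlap the 5 with KCl, from 6.28 to 6.91. In bZIP1 cells with CHX the result depended on the fit: it passed when dim probe sets were left out (0.0271) or treatment replicate was a block (0.0355). Members with every nitrogen array above every KCl array thus numbered 3 of 7 in empty-vector cells, 1 of 7 in bZIP1 cells with CHX and 0 of 7 without CHX. Of all probe sets, 0.598%, 0.022% and 0.149% did so. The arms compare 6 arrays with 5, 12 with 12 and 6 with 6, so these counts are not on one footing.

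The other 4 members were not called for nitrogen in any arm. AT1G52560 had effects of 0.56 ± 0.29 and 0.81 ± 0.40 in bZIP1 and empty-vector cells with CHX, with intervals that include 0. AT5G37670 had 0.29 ± 0.17 and 0.16 ± 0.20. AT5G51440 was the member with negative estimates in all 3 arms, of -0.26 ± 0.26 and -0.38 ± 0.17 with CHX and -0.05 ± 0.06 without. ATHSP22.0 had an effect between -0.32 and 0.33 (95% interval) in bZIP1 cells with CHX, on values mostly at the floor.

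To ask whether the nitrogen effect itself differed between arms, the effects were contrasted in 1 fit of all 47 arrays. For AT1G54050 the nitrogen effect was larger with CHX than without by 1.35 ± 0.29 (95% interval 0.75 to 1.94; limma adjusted p = 0.0222). It was the 1 member of 7 called in that contrast, where 0.343% of all probe sets were called and 0.211% were called higher. The call was lost without treatment replicate 2 (difference 1.47, adjusted p = 0.249) and without treatment replicate 3 (0.94, 0.721). It was also lost with Biorep left out of the fit (1.35, 0.129) or with Biorep 2 as the only bZIP1 cells with CHX (1.497, 0.0566), and it held with Biorep 1 alone (1.202, 0.0258). The labels name no shared preparation between arms, so CHX and preparation cannot be told apart here.

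Between the vectors, with CHX in both, limma called 0 of 7 members for a difference in nitrogen effect, against 0.0747% of all probe sets, and 0 of 7 at an unadjusted p under 0.05, against 4.55%. For AT1G54050 the effect in bZIP1 cells minus that in empty-vector cells was -0.35, with a 95% interval from -0.97 to 0.27. For AT1G53540 it was 0.06, with an interval from -0.38 to 0.50. These intervals leave room for differences of either sign.

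Among 10 named co-chaperone and heat-response partner genes of 16 listed, 2 rose, 1 fell and 7 were not called with nitrogen in bZIP1 cells with CHX, with a median effect of 0.23. Of all probe sets, 0.862% were called higher and 1.16% lower in that comparison. ROF2 (AT5G48570), an FKBP-type prolyl isomerase that binds HSP90, ran from 5.52 to 7.55 with nitrogen and from 5.25 to 5.86 with KCl, an effect of 0.97 ± 0.18 (limma adjusted p = 0.00557). Hop3 (AT4G12400), an organiser of the HSP70 and HSP90 complex, ran from 6.31 to 7.68 and from 5.45 to 6.71, an effect of 0.93 ± 0.19 (limma adjusted p = 0.0129). SGT1A, another HSP90 partner, changed the other way, by -0.36 ± 0.08 (limma adjusted p = 0.0298).

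In empty-vector cells neither was called, with ROF2 at 1.76 ± 0.27 (limma adjusted p = 0.0774) and Hop3 at 1.17 ± 0.16 (0.0536), although for both no array with nitrogen overlapped one with KCl. Without CHX ROF2 had 0.15 ± 0.11 and Hop3 0.22 ± 0.19, both with overlapping groups. Of the 4 other family members named (of 12 listed), the 2 HSP70-type genes named (of 23 listed chaperones) and the 3 endoplasmic reticulum folding genes named (of 11 listed), none was called for nitrogen in any arm. No gene of 21 listed heat shock factors could be named, and they were not analysed here.

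**Figure D3:**
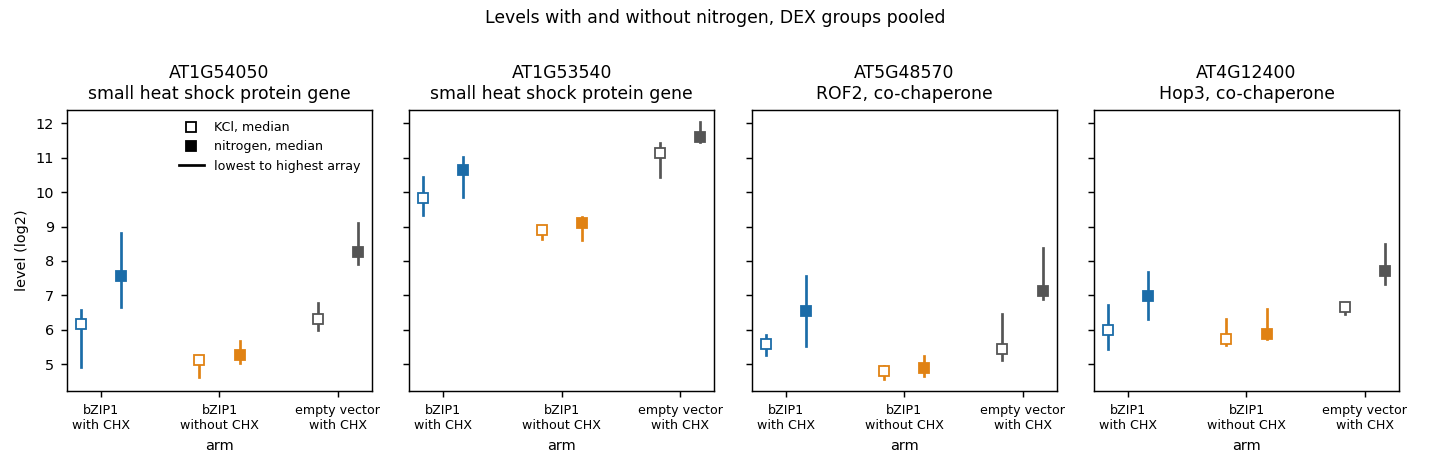
Squares are median log2 levels and lines run from the lowest to the highest array, with KCl (open) and nitrogen (filled) in 3 arms, for 2 small heat shock protein genes and 2 co-chaperone genes. In empty-vector cells the lines of the nitrogen and KCl arrays do not overlap for any of the 4 genes, and in bZIP1 cells without CHX they overlap for all 4.

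To ask what nuclear entry of bZIP1 did to these genes, groups with DEX were set against those given ethanol. AT1G52560 was 2.01-fold lower in bZIP1 cells with CHX, the only member called there. AT2G29500 was the only member called in bZIP1 cells without CHX, 1.25-fold lower with DEX. In empty-vector cells, which carry no bZIP1 fusion, limma called none.

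For AT1G52560 in bZIP1 cells with CHX, the 12 arrays with DEX ran from 3.49 over a median of 4.31 to 6.23, and the 12 without DEX from 3.17 over 6.18 to 7.59. The groups overlapped over both Bioreps and within each, and in Biorep 2 the arrays with DEX, from 3.49 to 4.42, lay inside the range without it, from 3.17 to 6.14. The effect was -1.004 ± 0.29 (95% interval -1.61 to -0.39; limma adjusted p = 0.0446), lower in 3 of 4 matched pairs of groups. It was -1.47 ± 0.42 in Biorep 1 (limma adjusted p = 0.145) and -0.53 ± 0.34 in Biorep 2 (0.894). The call was lost without treatment replicate 1, 2 or 3 (adjusted p between 0.1002 and 0.306), without the Biorep term (0.646) and with treatment replicates averaged (0.419).

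The DEX estimates of all 7 members lay below 0 in bZIP1 cells with CHX, with a median of -0.39 against 0.00 over all probe sets. In Biorep 2 alone AT1G54050 had 0.004 and ATHSP22.0, at the floor there, 0.0, while the other members stayed below 0. Several members co-varied over these arrays, so the signs are not independent. In empty-vector cells, which have no bZIP1 fusion, 6 of 7 lay below 0, with a median of -0.27, and in bZIP1 cells without CHX 4 of 7, with a median of -0.03. The call was 1 of 7, where 6.16% of all probe sets were called and 2.97% were called lower, so a single call among 7 is near that background. AT5G51440 had an effect of -0.62 ± 0.26 (limma adjusted p = 0.263). In Biorep 2 its values ran from 2.97 to 3.66 with DEX and from 3.74 to 4.20 without it, with no overlap. It was the 1 member of 7 so separated there, and the share of all probe sets that were was not counted. AT5G51440 passed only with treatment replicate as a block (0.0215). AT5G37670 and ATHSP22.0 each had -0.39, with SEs of 0.17 and 0.16, and neither was called.

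AT2G29500 in cells without CHX had values of 5.82, 5.95 and 5.96 with KCl alone and 5.56, 5.51 and 5.56 with KCl and DEX. With nitrogen it had 6.01, 6.14 and 5.97 without DEX and 5.77, 5.91 and 5.61 with it. Within each nitrogen condition the arrays with DEX lay below those without, and the share of all probe sets that did so was not counted. The effect was -0.32 ± 0.05 (limma adjusted p = 0.0133), lower in 2 of 2 matched pairs of groups, and leaving out treatment replicate 1, 2 or 3 ended the call (adjusted p between 0.1004 and 0.205). Of all probe sets, 4.29% were called in this comparison and 2.45% were called lower. After median centring 37.0% were called, 32.1% higher and 4.89% lower, and AT2G29500 was still called lower. The effect of this gene was -0.18 ± 0.13 in bZIP1 cells with CHX and -0.27 ± 0.19 in empty-vector cells.

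In empty-vector cells 1.05% of all probe sets were called for DEX and 0 of 7 members, with 1 lower at an unadjusted p under 0.05, against 3.85% of all probe sets. That 1 was AT1G54050, at -0.61 ± 0.14 (limma adjusted p = 0.144), lower with DEX in 2 of 2 matched pairs, and it passed when dim probe sets were left out (0.0258). In bZIP1 cells its DEX effect was -0.28 ± 0.21 with CHX and 0.23 ± 0.13 without.

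The difference in DEX effect between arms was not called for any member. Against bZIP1 cells without CHX limma called 0 of 7, where 4.46% of all probe sets were called, and against empty-vector cells 0 of 7, where 4.53% were called. At an unadjusted p under 0.05 both counts were also 0 of 7, against 12.4% and 11.7% of all probe sets. For AT1G52560 the DEX effect with CHX minus that without CHX, both in bZIP1 cells, was -0.80 (95% interval -1.71 to 0.11), and minus that in empty-vector cells it was -0.71 (-1.66 to 0.24). Both intervals include 0.

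Nitrogen and DEX showed no called interaction for any member. In bZIP1 cells with CHX, in those without and in empty-vector cells, limma called 0 of 7 at the adjusted threshold and 0 of 7 at an unadjusted p under 0.05. Among all probe sets 0%, 0% and 0.0352% were called, and 2.44%, 2.69% and 3.22% passed without adjustment. The interaction of AT1G54050 was -0.46 ± 0.42 in bZIP1 cells with CHX and -0.26 ± 0.28 in empty-vector cells.

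The contrast called for the most members was that between the Bioreps of bZIP1 cells with CHX. In Biorep 2, AT1G52560, AT5G51440 and AT5G37670 were lower than in Biorep 1 by about 2 log2 units, and ATHSP22.0 was at the floor. AT1G54050 stood higher in Biorep 2, and AT1G53540 and AT2G29500 were not called. In all, 4 of 7 members were lower and 1 higher, where 25.2% of all probe sets were called (11.2% lower and 14% higher). After median centring the same contrast called 59.9% of all probe sets, 45.2% lower and the rest higher, with the same 4 members lower and 1 higher. The background for the 4 lower members is thus far larger on that scale, where centring moved the median difference over all probe sets to -0.03.

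AT5G37670 ran from 6.52 to 8.42 over the 12 arrays of Biorep 1 and from 5.10 to 6.03 over the 12 of Biorep 2, so the Bioreps did not overlap. The difference, Biorep 2 minus Biorep 1, was -1.95 ± 0.17 (limma adjusted p = 2.47e-08). AT5G51440 ran from 4.30 to 7.04 and from 2.97 to 4.20, again without overlap, a difference of -1.99 ± 0.26 (limma adjusted p = 6.27e-06). Of all probe sets, 1.74% had every array of Biorep 2 below every array of Biorep 1.

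AT1G52560 ran from 4.21 to 7.59 in Biorep 1 and from 3.17 to 6.14 in Biorep 2, which overlapped, with a difference of -2.03 ± 0.29 (limma adjusted p = 1.85e-05). ATHSP22.0 reached 4.09 in Biorep 1, where 5 of 12 arrays were at the floor, and was at the floor on all 12 arrays of Biorep 2. The difference was -0.49 ± 0.16 (limma adjusted p = 0.0247), and the floor limits it in both Bioreps. The SD in Biorep 2 is 0, so the SE does not measure biological spread there. The call for ATHSP22.0 was lost without treatment replicate 2 (-0.34, adjusted p = 0.136) or 3 (-0.48, 0.184).

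AT1G54050 was higher in Biorep 2 by 0.63 ± 0.21 (limma adjusted p = 0.0306), which was lost without treatment replicate 2 (0.65, adjusted p = 0.180) or 3 (0.37, 0.421). AT1G53540 had a difference of -0.27 ± 0.13 and AT2G29500 one of -0.23 ± 0.13, neither called. None of the 4 members lower in Biorep 2 was called for nitrogen in any arm. The Bioreps had all 4 groups each, so nitrogen and DEX were balanced over them.

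**Figure D4:**
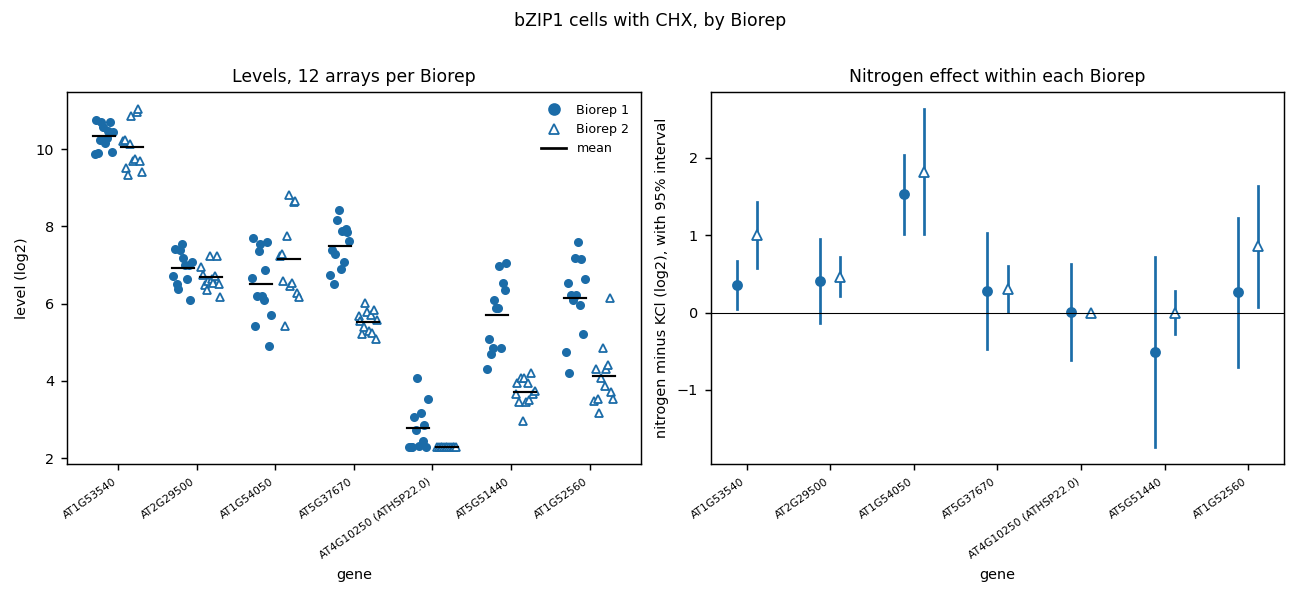
The left panel plots log2 levels of 7 genes on the 12 arrays of each Biorep of bZIP1 cells with CHX, with the mean as a line. The right panel plots the nitrogen effect with its 95% interval within each Biorep: AT5G37670 and AT5G51440 do not overlap between the Bioreps on the left, and AT1G54050 has effects of 1.53 and 1.82 on the right.

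Other chaperone genes also differed between the Bioreps, in both directions. In this contrast 14% of all probe sets were called higher and 11.2% lower. Of the 10 co-chaperone genes named, 1 was higher in Biorep 2, 2 were lower and 7 were not called, which is near those shares. AT4G02450 was the higher one, by 0.41 ± 0.09 (limma adjusted p = 0.00126). AT2G20560 had a difference of -1.66 ± 0.15 (Biorep 2 minus Biorep 1, limma adjusted p = 3.14e-08), and HSA32 one of -0.53 ± 0.13. Of the endoplasmic reticulum genes, the unfolded protein response factors BZIP60 (-0.82 ± 0.10) and BZIP28 (-0.35 ± 0.10) were lower and the co-chaperone ATERDJ3B (0.93 ± 0.14) was higher. Both named HSP70-type genes were higher, the larger by 0.51 ± 0.15, and 2 other loci of the small heat shock protein list moved apart: AT5G54660 was higher by 0.70 ± 0.12 and AT2G19310 had a difference of -0.69 ± 0.21. What differed between the Bioreps is not in the labels, and its part in these levels was not tested.

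The members did not form one co-varying block. Once the mean of each group and Biorep was taken off the 24 arrays of bZIP1 cells with CHX, Pearson's r over the 21 pairs of members ran from -0.04 to 0.75, with a median of 0.40. AT1G53540 and AT1G54050 had the highest value, 0.75. AT5G37670 with AT5G51440 and AT1G53540 with AT1G52560 followed, both with 0.67. AT1G52560 had 0.60 with AT1G54050, against 0.54 with AT5G51440 and 0.46 with AT5G37670, so it stood between these genes. AT1G54050 had values of -0.03 with AT5G37670 and -0.004 with AT5G51440. These arrays come from 2 Bioreps, so the values are descriptions.

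For each member the 3 most similar genes were sought among 5045 probe sets with 1 gene name and a mean above 4, by Pearson's r over the 47 arrays after the mean of each arm was taken off. AT1G54050 was most like ROF2 (0.86), then AT5G39590 (0.75) and Hop3 (0.74). AT1G53540 was most like Hop3 (0.79), ROF2 (0.71) and AT1G68670 (0.68), and AT2G29500 was most like ROF2 (0.62), AT1G14200 (0.60) and Hop3 (0.60). These 3 members thus share Hop3 and ROF2 among their nearest genes. The nitrogen effects called for Hop3, ROF2, AT1G54050 and AT1G53540 in bZIP1 cells with CHX are part of these values.

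The other 4 members had other neighbours. AT5G37670 was most like AT2G21640 (0.89), AT4G26870 (0.89) and AT2G04050 (0.87). AT5G51440 was most like AT2G21640 (0.93), AT1G05060 (0.90) and AT3G54520 (0.88). AT1G52560 was most like TPI, a triosephosphate isomerase gene of glycolysis (0.83), AT2G20560 (0.82) and DGL (0.81). ATHSP22.0, with most values at the floor, had its highest values with AT3G60910 (0.68), the ubiquitin protease gene UBP24 (0.67) and AT4G09100 (0.66). The Biorep and the nitrogen and DEX conditions of the arrays remain in all these correlations, since only arm means were taken off.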

How the data were processed

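Transcript levels were measured on 47 ATH1 arrays. The authors deposited log2 values (the scale was read from the values), and GCRMA is named, with no version, per the submitters' processing notes. The floors of the arms differed, so separate normalization was read from the values and is not given in the sources used here. Of 22810 probe sets, 64 controls were left out and 22746 tested. A table gave 1 gene to 13436 of them, several symbols to 503 and no match to 8807; names follow the TAIR10.1 annotation, used for names only.

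Each arm was fitted with limma 3.58.1 in R 4.3.3 (lmFit and eBayes, two-sided) on the 4 group means, with Biorep as a covariate in bZIP1 cells with CHX; differences of effects came from 1 fit of all 47 arrays. A value within 0.05 of its arm's lowest value counted as at the floor. Arrays hold no read counts, so their number limits the precision. Treatment replicates of a Biorep may not be separate cultures, so p-values measure the spread between arrays. Fits were tested on simulated data.

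Once group means were taken off, arrays of 1 Biorep correlated above 0.1 in all 108 pairs (median 0.541). Arrays with the same treatment replicate number passed 0.1 in 18 of 36 pairs in bZIP1 cells with CHX (median 0.101). They did so in 14 of 18 pairs without CHX (median 0.227) and 8 of 15 in empty-vector cells (median 0.126). Pairs with unlike numbers were not taken as a baseline, so whether the numbers pair arrays was not settled.

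Members, gene lists and tests were chosen with earlier results of these data known. Named genes are the 7 members, the 3 probe sets most like each (1 gene, mean above 4) and up to 4 called genes per list in the within-arm nitrogen, DEX and interaction comparisons. Genes named for the Biorep contrast, and the uncalled values of ROF2 and Hop3 in the other arms, are list members outside that rule, chosen after their values were seen. Alternatives were a filter on dim probe sets, median centring, a trended robust prior, a replicate block, leaving out replicates, Biorep left out, Bioreps alone, averaged treatment replicates and joint quantile normalization.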

Additional observations from a re-analysis of the deposited data

Results flagged for a closer look

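On 1 array of bZIP1 cells with CHX, nitrogen and no DEX (Biorep 1, treatment replicate 2), ATHSP22.0 (AT4G10250) stood at 4.09, with the next array of its group at 2.87. With DEX and no nitrogen, the array of the same Biorep and replicate number stood at 2.32, where the other 5 were at 2.30, the floor. The first lay farther from its group than Dixon's 95% critical value of 0.625 for 6 arrays allows. That value assumes normal values of 1 population, and here 4 of 6 arrays were at the floor, among them all 3 of Biorep 2. The second passed only because the other 5 arrays were tied, when any difference passes. It lies within 0.05 of the floor, counts as at the floor, and is no outlying level. Of 28 groups tested, 2 gave such an array, and chance gives about 1 in 20.

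The nitrogen effect of AT1G54050 was larger in bZIP1 cells with CHX than without it by 1.35 on the log2 scale, by a test of the difference itself. CHX and cell preparation cannot be told apart in it.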

How the results depend on the processing

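Over all alternatives, 836 member effects were counted as unchanged. Of these, called ones kept their call and direction. Uncalled ones moved by no more than the pooled SD between arrays of a group, some of them across 0. In bZIP1 cells with CHX a group holds both Bioreps, so this SD includes their difference and is a loose limit. For AT5G37670 the group SDs there were 1.06 to 1.24, against 0.10 to 0.74 within a Biorep. A further 28 lost a call, 6 gained one, 12 uncalled ones moved by more than that pooled SD and 1 was counted as reversed. Counts of called members stayed within 1.5 times in 102 cases and moved in 27. The case counted as reversed was the DEX effect of AT4G10250 without CHX, 0.0 in the main fit and 0.023 after median centring (limma adjusted p = 0.0398). It had no direction to reverse: the gene is at the floor on all 12 arrays and the centring itself supplies the shift. Centring also took the nitrogen count without CHX from 0 to 2 (AT2G29500 at 0.20 and AT4G10250 at 0.025) and the DEX count there from 1 to 2, where it called 31.9% and 37.0% of all probe sets, so that 2 of 7 is near the background. The filter on dim probe sets took the empty-vector DEX count from 0 to 1, where 4.26% of the probe sets kept were called, against 1.05% in the main fit. With CHX in bZIP1 cells, averaging treatment replicates, Biorep 1 alone and Biorep 2 alone each gave 0 called for nitrogen (2 in the main fit) and 0 for DEX (1). Of all probe sets, 0.0264%, 0.127% and 0.106% were then called for nitrogen, against 2.02% in the main fit. For DEX the shares were 0.765%, 3.10% and 1.69%, against 6.16%. Dropping Biorep from the fit gave 0 for DEX, where 3.19% of all probe sets were called. Leaving out a treatment replicate gave counts of 1 to 1 for nitrogen and 0 to 0 for DEX in that arm, 3 to 5 between Bioreps (5), 0 to 0 for DEX without CHX (1), 0 to 1 for nitrogen in empty-vector cells (1) and 0 to 1 for the difference in nitrogen effect with and without CHX (1). That difference gave 0 with Biorep 2 alone or without Biorep in the fit, where 0.255% and 0.171% of all probe sets were called. Leaving out a replicate also moved the shares over all probe sets. In bZIP1 cells with CHX they were 0.303% to 0.607% for nitrogen, 3.39% to 3.89% for DEX and 17.3% to 18.7% between Bioreps. The shares were 0.875% to 1.38% for DEX without CHX and 0.0264% to 3.03% for nitrogen in empty-vector cells. For the difference in nitrogen effect they were 0.251% to 0.347%. The replicate block took the DEX count in bZIP1 cells with CHX from 1 to 2 and the nitrogen count from 2 to 3, and changed no other call of a member. With it 6.77% of all probe sets were called for DEX and 2.59% for nitrogen in that arm. Whether the replicate numbers pair the arrays was not settled. The cause of the other changes was not tested. Levels near the floor limit what can be said of AT4G10250 in every arm and of AT5G51440 without CHX.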
